A study of Mus musculus with 3 samples.

Results

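The genes described here encode receptors that thrombin and related proteases cleave, the membrane proteins that start and restrain thrombin formation, and the activators of plasminogen. The group is a list of 10 genes, F2r, F2rl1, F2rl2, F3, Plau, Plaur, Plat, Serpine2, Thbd and Procr, and 8 of them were measured, out of 19935 genes on the arrays. The expression of F2rl1 and Serpine2 was not analysed here. The list was chosen by the F2r values on these same arrays, which were much higher with MAFK than in mock cells, so the differences between MAFK and mock cells are given below as a description of the members, with no test. Each of the 8 genes had a single probe set.

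The arrays compared stable lines made from NMuMG, a mouse mammary epithelial cell line. The MAFK group held clone 4 and clone 10, which carry FLAG-tagged MafK in the pCAGIP vector (1 array each, n = 2), and the mock group held cells with the empty vector (n = 1). The vector drives its insert from the CAG promoter, which is active in most cell types, and all the lines were grown in serum-containing medium with puromycin. Clones 4 and 10 are each 1 clone, whereas nothing in the labels makes the mock cells clonal, so the transgene and the cloning cannot be told apart as sources of a difference.

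MafK belongs to the small MAF proteins, leucine zipper factors that bind DNA as homodimers or with a CNC partner. Values are log2 RMA values (robust multi-array average, which corrects background, equalises the distributions of the arrays and condenses each set of probes to a single value). The medians of all 28815 probe sets were 6.92 in clone 4, 6.93 in clone 10 and 6.89 in mock. With 3 arrays this summary often returns identical values, and 34.3% of genes read the same on all 3 arrays. The number of arrays limits the precision, and the mock cells' own spread is unknown. The Mafk probe set read 8.74 in clone 4 and 8.59 in clone 10, against 8.49 in mock, and whether its probes cover the transgene was not analysed here. Of 11 epithelial markers measured, 4 were above mock in both clones (Krt7, Krt19, Cldn3 and Cldn4, the last by 0.01), 4 below (Cdh1, Krt8, Krt18 and Ocln) and 2 equal on all arrays. The keratin gene Krt8 read 13.18 and 13.31 in the clones and 13.67 in mock. Cdh1, which encodes E-cadherin, read 6.85 and 6.64 in the clones, against 11.35 in mock. The epithelial adhesion gene Epcam read 5.58 on all 3 arrays, below the array medians, as did Esrp1 at 5.48. Of 9 endothelial markers, 1 reached the median of all values (6.91) on each array, and Pecam1 (5.99) and Cdh5 (6.29) read the same on all 3. The summed log2 values of the endothelial markers were 56.08 in clone 4, 56.32 in clone 10 and 56.14 in mock. Likewise 1 of 6 leukocyte markers reached 6.91 on each array, and 1 of 3 platelet markers did so in each clone and 0 in mock. Of 8 fibroblast markers, 3 reached 6.91 on each array, 4 were above mock in both clones and 2 below, among them Dcn at 5.76 and 6.06 in the clones, against 7.88 in mock. The measurements are of bulk RNA, in which fewer expressing cells and less RNA per cell cannot be told apart.

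As background, protease-activated receptors are G protein-coupled receptors that carry their own ligand. A protease cuts the extracellular end, and the new end folds back and activates the receptor. Tissue factor on a cell surface binds factor VII and starts the reactions that make thrombin, while thrombomodulin and the endothelial protein C receptor turn thrombin towards making activated protein C. Urokinase and tissue plasminogen activator convert plasminogen to plasmin, which dissolves fibrin and degrades matrix, and the urokinase receptor holds urokinase at the cell surface. In human breast carcinoma lines the thrombin receptor PAR1 and the urokinase system are known for their part in invasion.

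Promoter windows, the 250 bases before the annotated start, were taken from RefSeq (build GRCm38.p6) for 6 of the 10 genes: F2r, F2rl2, F3, Plaur, Serpine2 and Procr. Of these, F2r is shown as the member farthest from mock, F3 and Plaur as the members farthest below it, and F2rl2 as a receptor gene close by F2r that read nearly the same on all arrays. Each is written 5′ to 3′ on the strand of its gene, and the capitals mark matches to TGANTCA (N is any base). This is the core bound by AP-1 factors and the centre of the MAF recognition element. The windows are chr13:95618467-95618716 on the minus strand for F2r, and on the plus strand chr3:121723287-121723536 for F3, chr7:24462233-24462482 for Plaur and chr13:95696670-95696919 for F2rl2.
F2r: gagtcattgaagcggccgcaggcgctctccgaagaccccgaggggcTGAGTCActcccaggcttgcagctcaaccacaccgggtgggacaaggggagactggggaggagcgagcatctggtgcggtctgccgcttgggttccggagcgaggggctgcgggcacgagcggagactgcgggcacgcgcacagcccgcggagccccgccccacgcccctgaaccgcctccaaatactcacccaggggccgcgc
F3: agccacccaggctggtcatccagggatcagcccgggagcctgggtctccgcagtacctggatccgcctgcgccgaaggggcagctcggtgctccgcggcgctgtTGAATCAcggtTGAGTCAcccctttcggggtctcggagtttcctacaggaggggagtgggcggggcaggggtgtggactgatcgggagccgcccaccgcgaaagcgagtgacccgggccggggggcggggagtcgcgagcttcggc
Plaur: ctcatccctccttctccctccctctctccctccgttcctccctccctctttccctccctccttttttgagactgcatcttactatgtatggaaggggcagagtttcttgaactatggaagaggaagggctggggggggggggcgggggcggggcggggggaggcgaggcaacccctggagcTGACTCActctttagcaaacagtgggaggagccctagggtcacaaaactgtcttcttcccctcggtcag
F2rl2: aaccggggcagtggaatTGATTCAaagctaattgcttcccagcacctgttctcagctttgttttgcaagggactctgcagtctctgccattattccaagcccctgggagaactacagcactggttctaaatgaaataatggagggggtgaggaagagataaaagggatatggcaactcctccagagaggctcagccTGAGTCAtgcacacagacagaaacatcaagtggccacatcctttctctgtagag

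The motif TGANTCA, read on both strands, was found in 5 of the 6 windows and in 6.75% of all 32851 windows of this length. The window of Serpine2 held none. F2r has 1 match, TGAGTCA, from 204 to 198 bases before the start. F3 has a pair, TGAATCA and TGAGTCA, with the second ending 129 bases before the start. Plaur has TGACTCA ending 63 bases before the start, F2rl2 has matches ending 227 and 48 bases before it, and Procr has TGACTCA from 154 to 148 bases before it. A form with a neighbouring GC, TGANTCAGC on either strand, which MAF proteins are known to prefer over the bare core, occurred in the windows of F2r, Plaur and Procr and in 1.02% of all windows. It overlaps TGANNNNGC, a loose form of the antioxidant response element core that allows any base after TGA. This loose form was found in these same 3 of 6 windows and in 35.2% of all windows. The motifs were chosen after the values of the genes were seen. Genes with a match were higher (F2r), lower (F3 and Plaur) or close to mock (F2rl2 and Procr), and a match is no evidence of binding. The GC content of the windows was 70.8% for F2r, 70.0% for F3, 59.6% for Plaur and 48.4% for F2rl2, against a median of 52.4% over all windows.

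F2r encodes PAR1, the main thrombin receptor on many cells. It read 10.25 in clone 4 and 10.29 in clone 10, against 6.09 in mock. Both clones were high and close to each other, and mock lay below the array median. The mean of the clones was 10.27 ± 0.03 (SD, n = 2), a difference of 4.18 on the log2 scale or 18.1-fold, and these are the values that led to the choice of the group. By that mean difference 5 of the 19935 genes were further above mock. Low values are compressed by RMA, so the fold describes these arrays.

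F2rl2 encodes PAR3, which in mouse platelets helps thrombin to cleave PAR4 and signals little by itself. It read 6.16 in clone 4 and 6.28 in clone 10, against 6.16 in mock. Clone 4 equalled mock and clone 10 differed from it by 0.12. F2rl3, the gene of PAR4, is outside the 10 genes and read 6.29 on all 3 arrays. Among the 3 receptor genes measured, F2r was thus the one far from mock. F2rl2 and F2rl3 lay below 6.91, the median of all values, on each array. RMA compresses differences there, so near-equal values need not mean an expressed and unchanged gene.

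**Figure D1:**
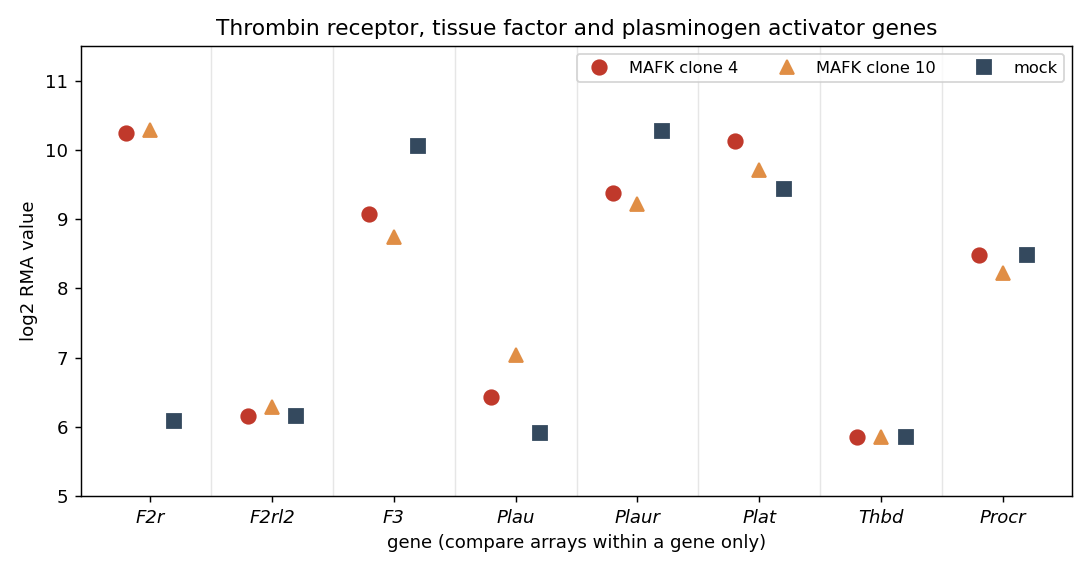
Log2 RMA value (vertical axis) of the 8 genes in MAFK clone 4, MAFK clone 10 and mock, with 1 point per array and no error bars because each point is a single array. F2r sits above 10 in both clones and at 6.09 in mock, F3 and Plaur sit lower in both clones, and Thbd has the same value on all 3 arrays.

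F3 encodes tissue factor, the cell-surface starter of coagulation. It read 9.07 in clone 4 and 8.74 in clone 10, against 10.05 in mock. Both clones were below mock, clone 10 further than clone 4. The mean of the clones was 8.91 ± 0.24 (SD, n = 2), 2.21-fold lower than mock, a difference of -1.15 on the log2 scale. In clone 4 alone it was 1.97-fold, just short of the 2-fold line used below.

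Thbd encodes thrombomodulin, which binds thrombin and changes its substrate to protein C. It read 5.86 on all 3 arrays, below 6.91, the median of all values, where RMA compresses differences. Procr encodes the endothelial protein C receptor, and read 8.48 in clone 4 and 8.22 in clone 10, against 8.48 in mock. Clone 4 equalled mock here too, and clone 10 was lower by 0.26 on the log2 scale. Neither gene of the protein C arm was separated from mock in both clones.

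Plau encodes urokinase. It read 6.43 in clone 4 and 7.04 in clone 10, against 5.92 in mock. Mock and clone 4 lay below 6.91, the median of all values, where RMA compresses differences. Both clones were above mock, but they lay 0.61 apart from each other, a gap as large or larger in 1.32% of all genes. That share is no measure of clone variation, because 55.5% of all genes read exactly the same in both clones. The mean difference was 0.82 with an SD between the clones of 0.43, or 1.43-fold in clone 4 and 2.18-fold in clone 10. Plau lies on chromosome 14, where 176 of 702 genes (25.1%) were above mock in both clones and 254 (36.2%) were below. Over all genes the shares were 33.7% and 17.9%, and the part of the chromosome in the Plau value was not tested.

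Plat encodes tissue plasminogen activator, and read 10.13 in clone 4 and 9.71 in clone 10, against 9.43 in mock. It was above mock in both clones, here more in clone 4, with a mean difference of 0.49 (1.40-fold) and an SD between the clones of 0.30. Plat lies on chromosome 8, where 528 of 961 genes (54.9%) were above mock in both clones, against 33.7% of all genes. The median difference on that chromosome was 0.05 in each clone, and its part in the Plat value was not tested.

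Plaur encodes the urokinase receptor, a protein anchored in the outer membrane by a lipid. It read 9.38 in clone 4 and 9.22 in clone 10, against 10.28 in mock. Both clones were below mock and close to each other. The mean of the clones was 9.30 ± 0.11 (SD, n = 2), 1.97-fold lower than mock, a difference of -0.98 on the log2 scale. The urokinase gene and the gene of its receptor were therefore on opposite sides of mock in both clones. The urokinase gene, however, read below 6.91 in mock and in clone 4.

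Counting the members, 3 of 8 were above mock in both clones (F2r, Plau and Plat), 2 were below in both (F3 and Plaur), 2 equalled mock in clone 4 (F2rl2 and Procr) and 1 was equal throughout (Thbd). Across all genes 33.7% were above mock in both clones and 17.9% below in both. At least 2-fold in the same direction in both clones, the rule of size used here, was met by 1 of the 8, F2r, against 3.0% of all genes (598 of 19935). Since F2r was picked for this contrast, nothing is read from that share. Just inside the rule stood no other member, and just outside it stood F3 (-0.98 in clone 4 and -1.32 in clone 10) and Plaur (-0.90 and -1.06). At 1.5-fold F3 and Plaur also counted, making 3 of 8, against 6.17% of all genes. With clone 10 alone 4 of 8 members reached 2-fold, F2r, F3, Plau and Plaur, against 3.59% of all genes. With clone 4 alone 1 did, against 3.78%. These counts also come from the contrast that chose the group and include F2r, so nothing is read from their shares.

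**Figure D2:**
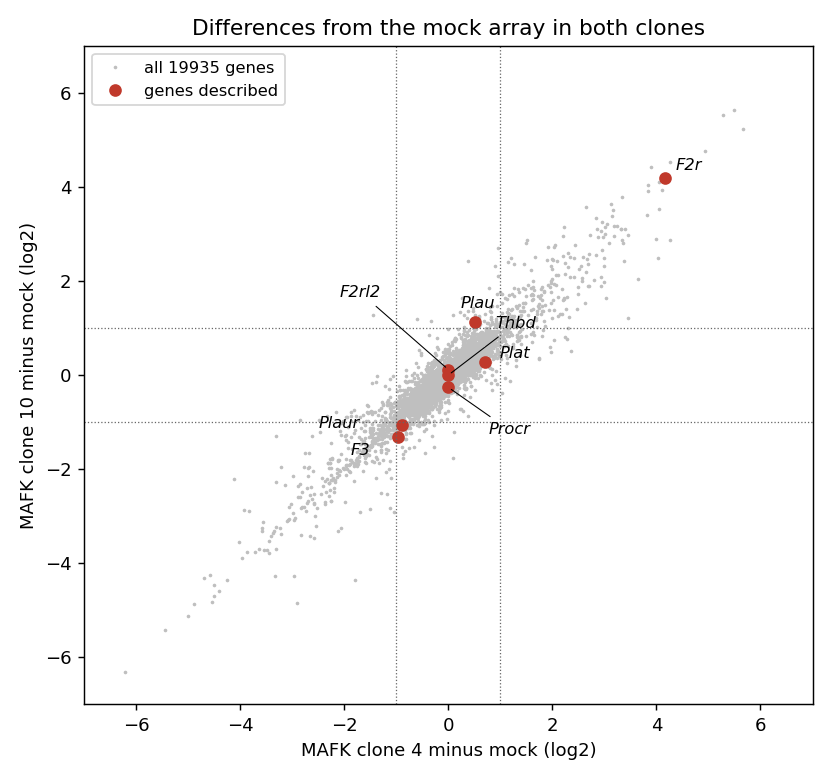
Difference from mock on the log2 scale in MAFK clone 4 (horizontal) and MAFK clone 10 (vertical) for all 19935 genes (grey) and the 8 genes described (red), with dotted lines at 2-fold. F2r lies far out near 4.2 on both axes, F3 and Plaur lie near -1, Plau lies at 0.51 and 1.13 with only clone 10 past 2-fold, and the other 4 genes lie closer to 0. Both axes share the 1 mock array.

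The clones were also set against each other, 1 array each and so without a replicate check. Of the 8 genes, Plau was the furthest apart, higher by 0.61 in clone 10 than in clone 4. Plat was lower by 0.42 and F3 by 0.34 in clone 10. F2r differed by 0.04 between the clones, a gap as large or larger in 31.2% of all genes, while 55.5% of all genes had no gap. Thus the plasminogen activator genes, Plau and Plat, varied in opposite directions between clones in which the thrombin receptor gene was at almost the same level.

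The 6 genes nearest to F2r in their pair of differences from mock, by Euclidean distance over these 3 arrays, were Cytip, Nlrp2, Adgre5, Dab2, Dynlt3 and Praf2. Cytip was closest, at a distance of 0.13, with 9.49 in clone 4 and 9.55 in clone 10, against 5.44 in mock. Praf2, the furthest of the 6, was at 0.44. With 3 arrays many genes can share such a shape. The 6 lie on chromosomes 2, 7, 8, 15 and X, and none is on chromosome 13 with F2r. That chromosome holds 734 of the 19935 genes, so nothing is read from this absence.

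F2r, F2rl1 and F2rl2 lie close together on chromosome 13 in assembly GRCm38.p6. Ordered by lower coordinate, Iqgap2 comes after F2r and before F2rl2, and whether these genes overlap was not analysed here. The 11 nearest measured genes were read as a description of the surroundings of F2r. None of them was 2-fold higher in both clones, against 1.19% of all genes, so nothing is read from that count. Their differences from mock ran from -1.48 to 0.47, and 3 (Pde8b, Sv2c and Poc5) read the same on all arrays. Iqgap2, a scaffold protein gene next to F2r, read 8.76 in clone 4 and 8.59 in clone 10, against 9.58 in mock, so it was lower while F2r was higher. Zbed3 was the highest of the 11, at 0.44 in clone 4 and 0.47 in clone 10 above mock. Polk, a DNA polymerase gene, was the 1 neighbour of 11 past 2-fold, against 3.0% of all genes in either direction. It read 7.69 and 7.49 in the clones, against 8.97 in mock. Over the chromosome as a whole 27.0% of 734 genes were above mock in both clones and 28.5% below.

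**Figure D3:**
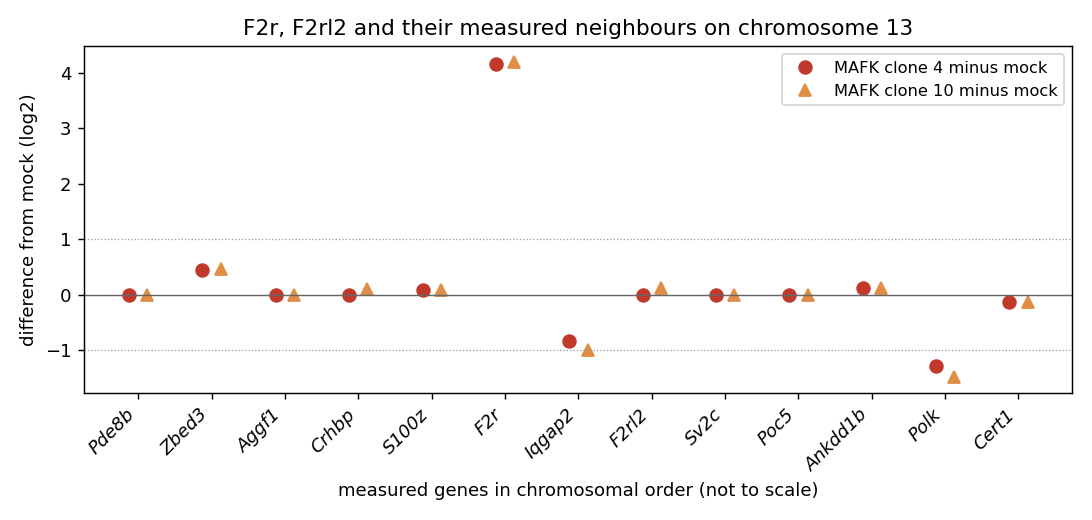
Difference from mock on the log2 scale (vertical axis) in MAFK clone 4 and MAFK clone 10 for F2r, F2rl2 and the 11 measured neighbours in chromosomal order, with dotted lines at 2-fold. F2r stands at 4.16 and 4.20 between S100z at 0.09 in both clones and Iqgap2, which is below 0 in both.

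Beyond the 10 genes, 123 others of the same system were listed in 5 groups, of which 115 were measured. At least 2-fold in both clones, 4 were higher, against 1.19% of all genes, and 8 were lower, against 1.81%. The median difference was 0 in each clone, as it was over all genes. Limma's moderated test over all 19935 genes (two-sided, Benjamini-Hochberg adjusted p under 0.05, with mock assumed to vary as the clones do) called 232 genes or 1.16%, each at least 2-fold apart in both clones, 0.401% higher and 0.762% lower. Of the 115 it called 3, all lower. At an unadjusted p under 0.05 limma gave 9 of the 115 higher and 15 lower, against 9.2% and 8.26% of all genes. The words rose and fell are kept for genes with a limma adjusted p under 0.05. Under other limma settings 6 genes past 2-fold that did not pass (Tfpi, Sorl1, Plcb4, Rgs2, Cxcl1 and Vcam1) gained a call in 1 or more. Some list genes short of 2-fold also gained a call, Vldlr and Spint2 among them.

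Coagulation factors and their inhibitors mostly read alike in the lines. Of 26 measured, 15 read the same on all 3 arrays, against 34.3% of all genes. Among them were F2, the prothrombin gene, at 6.16, and the 3 fibrinogen genes Fga, Fgb and Fgg. All 15 read below 6.91, the median of all values, where RMA compresses differences. The 1 gene past 2-fold, against 3.0% of all genes, was Tfpi, which encodes the inhibitor of the tissue factor pathway. It read 6.37 in clone 4 and 6.46 in clone 10, against 7.53 in mock, 2.17-fold lower in the same cells in which F3 was lower, with a limma adjusted p of 0.0597 that did not pass. Most factors in this list are made by the liver. At an unadjusted p under 0.05 limma gave 0 of the 26 higher and 3 lower, against the same 9.2% and 8.26% of all genes.

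In the plasminogen system 2 of 16 genes were at least 2-fold lower, against 1.81% of all genes, and none was higher, against 1.19%. None passed limma (at an unadjusted p under 0.05, 1 higher and 1 lower, against 9.2% and 8.26% of all genes). Plg, the plasminogen gene, read 6.15 in both clones, against 6.12 in mock. The 2 lower genes encode endocytic receptors. Lrp1, which clears complexes of urokinase with its inhibitor from the cell surface, read 8.50 in clone 4 and 9.75 in clone 10, against 10.97 in mock. Its clones were 1.25 apart and the limma adjusted p was 0.329. Sorl1, a related sorting receptor, read 8.04 and 8.15 in the clones, against 9.50 in mock, 2.64-fold lower with a limma adjusted p of 0.0526. Vldlr, another receptor of the family, was above mock by 0.88 and 0.83 (limma adjusted p = 0.072). The plasminogen-binding pair Anxa2 and S100a10 stayed within 0.13 of mock, with S100a10 at 12.81 on all 3 arrays.

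Among 24 proteases that cleave these receptors or urokinase, with their inhibitors, 1 was at least 2-fold higher and 1 lower. Over all genes the shares were 1.19% and 1.81%. The collagenase gene Mmp13 fell to 5.77 and 5.49 in the clones, against 10.31 in mock, 25.7-fold lower (limma adjusted p = 0.0311). The kallikrein gene Klk10 read 7.93 in clone 4 and 8.62 in clone 10, against 6.89 in mock, 2.60-fold higher without passing (limma adjusted p = 0.234). St14, the gene of the epithelial protease matriptase, read 6.48 and 6.61 in the clones and 6.31 in mock, and its inhibitor gene Spint2 was 1.49-fold lower (limma adjusted p = 0.121).

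Genes of receptor signalling included some on each side of mock. Of 28 measured, 2 were at least 2-fold higher and 1 lower, against 1.19% and 1.81% of all genes. Gnai1, an inhibitory G protein subunit of the kind to which PAR1 couples, fell to 6.48 in clone 4 and 6.47 in clone 10, against 8.58 in mock, 4.33-fold lower (limma adjusted p = 0.0304). Its relatives Gnai2 and Gnai3 were below mock by at most 0.32. Plcb4, a phospholipase C gene of the Gq pathway, read 9.21 and 9.55 in the clones, against 7.12 in mock, 4.79-fold higher without passing (limma adjusted p = 0.0693). Rgs2, which encodes a brake on Gq, read 8.73 and 8.87 in the clones, against 7.38 in mock, 2.68-fold higher without passing (limma adjusted p = 0.0591). Gna12 and Gna13, G protein subunits to which PAR1 also couples, read 10.65 in both clones against 10.47 in mock, and 10.97 on all 3 arrays. The arrestin gene Arrb1, whose product desensitises PAR1, read 9.28 and 9.55 in the clones and 9.34 in mock.

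Genes known to respond to thrombin in other cells did not share 1 direction. Of 21 measured, 1 was at least 2-fold higher and 3 were lower, against 1.19% and 1.81% of all genes. The cyclooxygenase gene Ptgs2 fell to 8.29 and 8.56 in the clones, against 11.88 in mock, a mean difference of -3.45 on the log2 scale (limma adjusted p = 0.0357, and 0.0572 after a second quantile normalization). Vcam1, an adhesion molecule gene, read 6.32 and 6.80 in the clones, against 10.35 in mock (limma adjusted p = 0.0542). The chemokine gene Cxcl1 read 8.61 and 8.42 in the clones, against 9.84 in mock (limma adjusted p = 0.0731). Edn1, the endothelin gene, was the 1 higher by 2-fold, at 9.49 and 9.14 in the clones, against 7.30 in mock (limma adjusted p = 0.0783). The immediate early gene Egr1 read 8.41 and 7.96 in the clones, against 7.54 in mock. Ccn1 and Ccn2, matrix protein genes that thrombin induces in other cells, were higher than mock in clone 4 (0.26 and 0.32) and lower in clone 10 (-0.10 and -0.29).

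**Figure D4:**
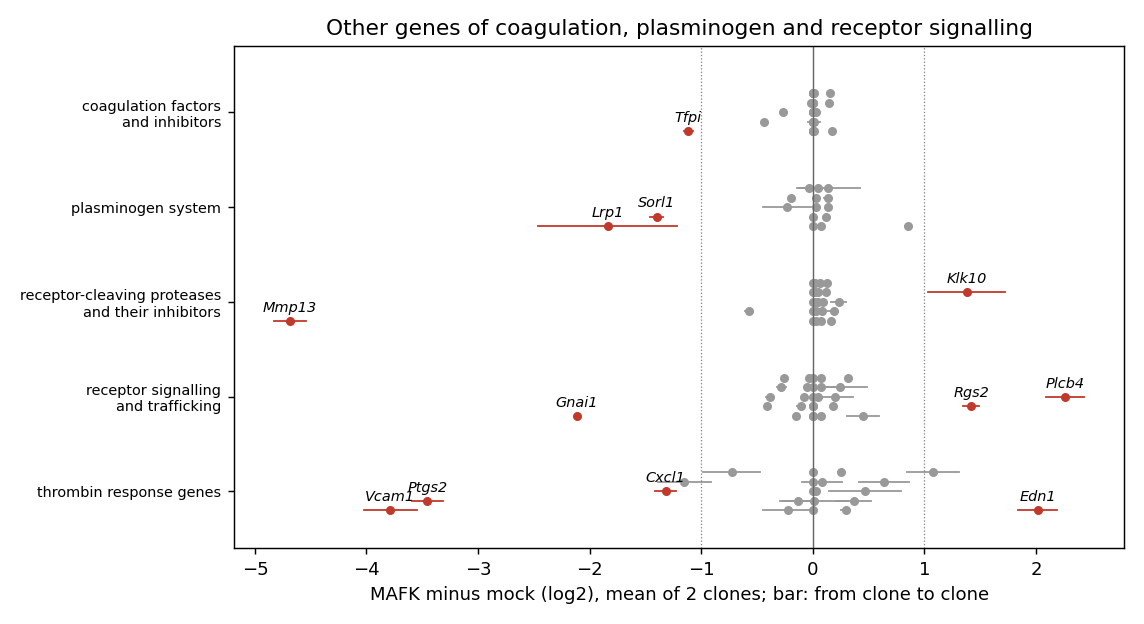
Difference between MAFK and mock on the log2 scale (horizontal axis) for the 115 other genes in 5 lists, with a point at the mean of the 2 clones and a bar from one clone to the other. The 12 genes past 2-fold in both clones are red and named, from Mmp13 at -4.68 to Plcb4 at 2.26, and most others lie near 0.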

How the data were processed

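RNA of 2 MAFK clones and 1 mock line was measured on Affymetrix arrays from 100 ng of total RNA each, per the labels' protocols. The authors deposited log2 values, 1 per probe set, that came from RMA per the submitters' processing notes. The RMA version, filters and array detection calls are not given in the sources used here. Of 28815 probe sets, 21780 had 1 gene symbol in the platform's annotation, 1605 had several and 5430 had none. Symbols were updated by Entrez identifier through RefSeq genes of GRCm38.p6 (21689 probe sets), and the probe set with the highest mean stood for each of 19935 genes.

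Differences were taken from mock in each clone. Limma 3.58.1 in R 4.3.3 was fitted to all 3 arrays with 1 residual degree of freedom, its prior estimated from genes whose clones differed (1.93 degrees of freedom, SD 0.0694), and was tested on simulated data. Nothing says that the clones came from separate cultures or extractions, and the p-values measure only how far these arrays spread, which may be technical. The members, lists and tests were chosen with earlier results of these data known. Named genes were the members, list genes past 2-fold in both clones, F2rl3, Plg and F2, the genes nearest to F2r in pattern and its chromosomal neighbours, and some markers. Other list genes and other markers and Mafk were added with their values known. The alternatives were a second quantile normalization, median centring, the mean of a gene's probe sets, a filter on low values, a 1.5-fold rule, other limma priors and leaving out each clone.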

Additional observations from a re-analysis of the deposited data

How the results depend on the processing

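Median centring could not change a member's difference, because the median difference over all genes was 0 in each clone. The mean of all probe sets could not either, because each measured member had a single probe set. A second quantile normalization moved each difference by less than the spread between the clones, except for Thbd, equal on all arrays, which read -0.025. Leaving out each clone gave between 4.16 and 4.20 for F2r, -1.32 and -0.98 for F3, -1.06 and -0.90 for Plaur, 0.51 and 1.13 for Plau, 0.28 and 0.70 for Plat, 0 and 0.12 for F2rl2, and -0.26 and 0 for Procr. Plau with either clone alone was thus 1.43-fold or 2.18-fold above mock. The members at least 2-fold apart numbered 1, and between 1 and 4 with a clone left out, and 3 at 1.5-fold. Over all genes the count was 237 higher and 361 lower, and 507 and 723 at 1.5-fold. Limma called 80 genes higher and 152 lower. With the prior from all genes it called 2240 and 1313, with an intensity trend 2499 and 1231, and after a second quantile normalization 1395 and 872. In these 3 settings the prior SD came out lower, at 0.0105, 0.0111 and 0.0056, against 0.0694. Of the 12 other pathway genes past 2-fold in both clones, Ptgs2 lost its limma call after the second quantile normalization (adjusted p = 0.0572). Mmp13 and Gnai1 kept theirs in each setting. Calls gained are given for these 12 only. Others gained a call: Tfpi, Sorl1, Rgs2, Cxcl1 and Vcam1 with the prior from all genes (adjusted p from 0.0295 to 0.0489), these 5 and Plcb4 with an intensity trend (0.0243 to 0.0425), Sorl1 and Vcam1 with low genes left out (0.0499 and 0.0491), and Tfpi after the second quantile normalization (0.0487). No paired analysis was possible because the mock group has 1 array. Limma was not run with a clone left out, as no residual degree of freedom remains.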
